A study of Mus musculus with 4 samples.

Results

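The 6 genes that encode the mouse nuclear receptors for retinoic acid (Rara, Rarb and Rarg) and for rexinoids (Rxra, Rxrb and Rxrg) held 59 of the 74695 accessible sites merged over all libraries. A site was given to a receptor gene if its centre lay inside the gene, or if that gene was the nearest of 21887 protein-coding genes, up to 100 kb away. The sites came from ATAC-seq, in which the Tn5 transposase cuts and tags open chromatin, on brain parenchymal macrophages sorted by flow cytometry. There were 4 libraries, MDM1 and MDM2 in the MDM group and YSM1 and YSM2 in the YSM group. MDM was read from the series title as monocyte-derived macrophages, and the labels do not say what YSM stands for. Both groups carried the genotype Ms4a3-Ai9 and the treatment DR-3x, which the labels do not explain. Ms4a3 is a gene of the bone marrow progenitors that form monocytes, and Ai9 is a red fluorescent reporter switched on by Cre recombination. In such a line the colour follows descent and not the present state of a cell. The labels give no age, no sex and no gate that parted the groups, and do not say whether replicates are separate animals. No values per library entered the work, so a site has a position, a number of library-level peaks and a place in the authors' MDM or YSM list, and no error over replicates.

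Retinoic acid is made from vitamin A and acts through RARs, which bind DNA as dimers with an RXR. RXRs also pair with the oxysterol receptors, the PPARs, the vitamin D receptor and the thyroid hormone receptors, and in macrophages such dimers govern genes of lipid handling and inflammation. RAR and RXR dimers bind repeats of a short hexamer, the retinoic acid response element. The best known element lies in the promoter of Rarb itself, which retinoic acid therefore induces in many cell types.

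Of the 59 receptor sites, 0 were in the MDM list and 10 were in the YSM list. Over all merged peaks, 0.145% were MDM-listed and 1.48% YSM-listed. The 10 sites fell to 2 genes, Rarb with 5 of 7 and Rxrg with 5 of 13, while Rara, Rarg, Rxra and Rxrb had 0 of 13, 0 of 7, 0 of 18 and 0 of 1. For the last 4 genes, 0 listed among 39 sites is near the share over all peaks and is no result about them. These 6 genes were selected on measured values, namely their number of sites, subpeak numbers and places in the lists, so these counts are a description and were not tested. A listed peak was read, from its list's name, as more open in that group.

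**Figure D1:**
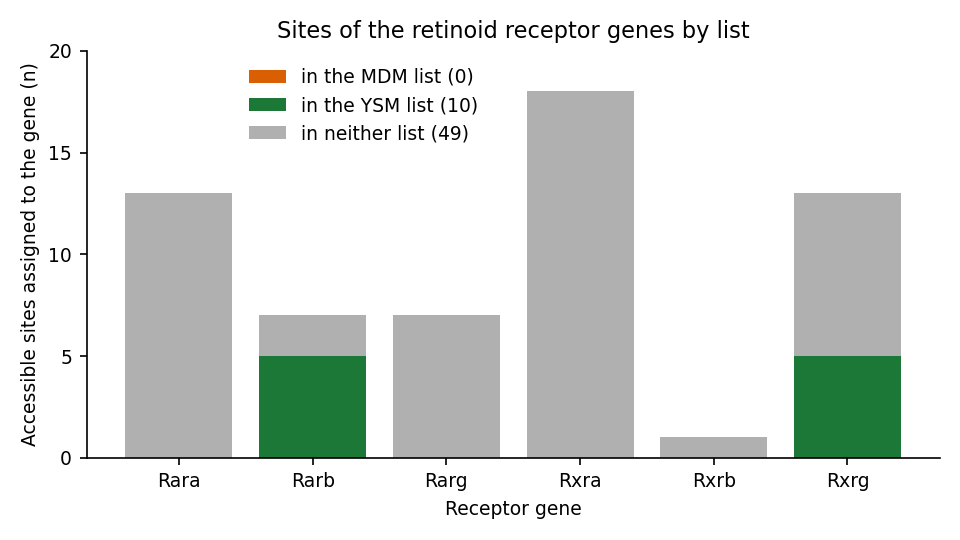
Number of accessible sites assigned to each receptor gene (bars), split by the authors' list, with the total of each list over the 6 genes in the legend. The green parts, 5 sites at Rarb and 5 at Rxrg, are the YSM-listed ones, and no bar has an MDM-listed part.

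Of the 10 YSM-listed sites, 2 overlapped a promoter window, 1 at Rarb and 1 at Rxrg. The windows of these 2 genes are printed to show those sites, and were taken from RefSeq for build GRCm38.p6, whose chromosomes are those of mm10. Each runs 5′ to 3′ on the gene's strand, from 250 bases before an annotated start to 50 bases after it. The Rarb window, chr14:16575427-16575726 on the minus strand, lay wholly (300 of 300 bases) inside a YSM-listed site. Its capitals mark a direct repeat of 2 hexamers spaced by 5 bases, from 53 to 37 bases before the start, which is the known response element.

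Rarb: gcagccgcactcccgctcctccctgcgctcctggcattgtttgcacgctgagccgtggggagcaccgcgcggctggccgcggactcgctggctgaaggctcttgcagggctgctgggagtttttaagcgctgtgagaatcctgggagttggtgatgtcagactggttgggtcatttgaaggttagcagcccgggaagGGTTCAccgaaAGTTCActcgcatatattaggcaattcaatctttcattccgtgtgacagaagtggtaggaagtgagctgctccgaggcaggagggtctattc

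Rxrg had 2 windows on the plus strand. In the first, chr1:167598112-167598411, the capitals mark the 83 bases, the last of the window, that lay inside a YSM-listed site. In the other, chr1:167618015-167618314, they mark the hexamer AGGTCA, the sequence best known as a receptor contact. This window overlapped no merged peak, and a YSM-listed site was centred 193 bp past its start.

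Rxrg, first start: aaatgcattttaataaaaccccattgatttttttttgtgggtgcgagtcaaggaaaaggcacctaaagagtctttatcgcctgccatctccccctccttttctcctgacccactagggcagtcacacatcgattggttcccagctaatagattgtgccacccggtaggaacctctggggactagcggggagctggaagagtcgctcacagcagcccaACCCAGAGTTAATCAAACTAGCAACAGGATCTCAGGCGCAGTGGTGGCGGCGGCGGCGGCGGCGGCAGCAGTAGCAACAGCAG

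Rxrg, later start: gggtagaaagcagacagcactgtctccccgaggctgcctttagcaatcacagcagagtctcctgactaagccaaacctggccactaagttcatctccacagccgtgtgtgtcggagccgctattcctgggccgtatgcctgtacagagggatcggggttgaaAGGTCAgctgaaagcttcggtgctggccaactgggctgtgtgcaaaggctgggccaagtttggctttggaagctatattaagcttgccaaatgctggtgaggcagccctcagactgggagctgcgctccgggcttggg

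The spaced repeat was rare among promoters. Both strands were searched for the hexamer AGGTCA and for 3 variants of it. The first variant, AGTTCA, is the hexamer of the Cyp26a1 repeat printed further on. The second variant was GGGTCA, and the third was GGTTCA, which opens the Rarb repeat. The variants were added after the windows had been searched for AGGTCA, with the Rarb element known, so the match at Rarb is no independent finding. Any pair of the 4 hexamers in the same direction with 5 bases between counted. Of 21238 promoter windows of 17469 protein-coding genes, 17 (0.08%) held such a repeat, and of the 13 receptor windows 1 did, that of Rarb. With spacings of 1 or 2 bases it was 0 of 13, against 0.184% and 0.0895% of all windows. With AGGTCA alone in both places, a repeat spaced by 5 was in 1 of the 21238 windows and in 0 of the 13. The single hexamer AGGTCA was in 4 of the 13 windows, at Rara, Rarg, Rxra and Rxrg, and in 14.7% of all windows. A match of letters is no proof of binding.

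Of the 17 windows with the repeat spaced by 5, 2 overlapped a merged peak, those of Rarb and of Tnfsf13b, the gene of the B-cell survival factor BAFF. The Tnfsf13b peak combined 4 subpeaks and was in neither list. For comparison, 49.4% of all windows overlapped a merged peak, and 0.372% a YSM-listed one. Cyp26a1, the enzyme gene for retinoic acid breakdown and a known target with an element of its own, had the repeat 32 to 16 bases before its start and no merged peak over that window. The 3 repeats are set side by side, read on the strand that holds the match, with the hexamers in capitals and the spacer in lower case. That of Rarb lies at chr14:16575513-16575529, that of Cyp26a1 at chr19:37697776-37697792 and that of Tnfsf13b at chr8:10006245-10006261.

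Rarb: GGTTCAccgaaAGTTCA

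Cyp26a1: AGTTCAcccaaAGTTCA

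Tnfsf13b: AGTTCAgatggAGTTCA

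Rarb, the receptor subtype that retinoic acid induces from its own promoter, lies on chromosome 14 from 16430839 to 17082331 (NCBI gene 218772, minus strand). All of its 7 sites were inside the gene. The promoter site, chr14:16575416-16575774, was 359 bp wide and combined 2 subpeaks. A subpeak is a peak called in a single library, and a site of 3 or fewer lacked a call in at least 1 of the 4 libraries. The other YSM-listed sites of Rarb were chr14:16598188-16598391, which lay 22813 bp before the annotated start, and 3 sites downstream of it. These were chr14:16538271-16538502, chr14:16478895-16479284 and chr14:16457241-16457507, centred 37090, 96387 and 118102 bp past the start. All 5 listed sites thus lay within the part of the gene from 22813 bp before that start to 118102 bp past it.

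The 2 unlisted Rarb sites, chr14:16534140-16534342 and chr14:16454806-16455022, each had a listed Rarb site as a neighbour. They had 2 subpeaks each and were 203 and 217 bp wide, while the listed ones had 2 or 3 subpeaks and were 204 to 390 bp wide. The gene record reaches 506855 bp further upstream than the annotated start used here. In the last 483940 bp of that record, 74.3% of the gene, there were 0 merged peaks. Rarb had the fewest sites per length, with 1.07 inside the gene per 100 kb, against 12.1 to 25.5 for the other 5 receptors. Within 500 kb of either side of Rarb there were 17 other merged peaks, of which 0 were listed. With 0.145% MDM-listed and 1.48% YSM-listed over all merged peaks, 0 of 17 is near that share.

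Rxrg, the RXR subtype best known from brain and muscle, lies on chromosome 1 from 167598362 to 167639623 (NCBI gene 20183, plus strand). Its 5 YSM-listed sites included 1 close to each annotated start. The site at the first start, chr1:167598329-167598612, was 284 bp wide and was centred 108 bp past the start. The site at the later start, chr1:167618358-167618559, was 202 bp wide. Both combined 2 subpeaks. The other 3 were upstream of the gene, and chr1:167588997-167589328 and chr1:167590130-167590330 lay 9200 and 8132 bp from it with a gap of 801 bp between them. The farthest listed one, chr1:167554119-167554324, lay 44141 bp from the gene and combined 4 subpeaks.

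The 8 unlisted Rxrg sites were all single-library calls, each with 1 subpeak and 201 bp wide, the width of every single call in the data. Of these, 3 were inside the gene, 4 upstream and 1 downstream. Of the 5 listed sites, 1 was a single call (chr1:167590130-167590330), 3 had 2 subpeaks and 1 had 4. That last one, chr1:167554119-167554324, was the 1 Rxrg site at which each library can have had a call. Within 500 kb of Rxrg there were 25 other merged peaks, of which 0 were MDM-listed and 3 YSM-listed (12%). Over all merged peaks 0.145% were MDM-listed and 1.48% YSM-listed. The 3 of 25 are a larger share than 1.48%, and were not tested. Of the 3 listed peaks, 2 were upstream and assigned to Lrrc52, a gene of an auxiliary channel subunit, at 80454 and 106304 bp from Rxrg. The other 1 was inside Uck2, a uridine-cytidine kinase gene, 324602 bp away.

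**Figure D2:**
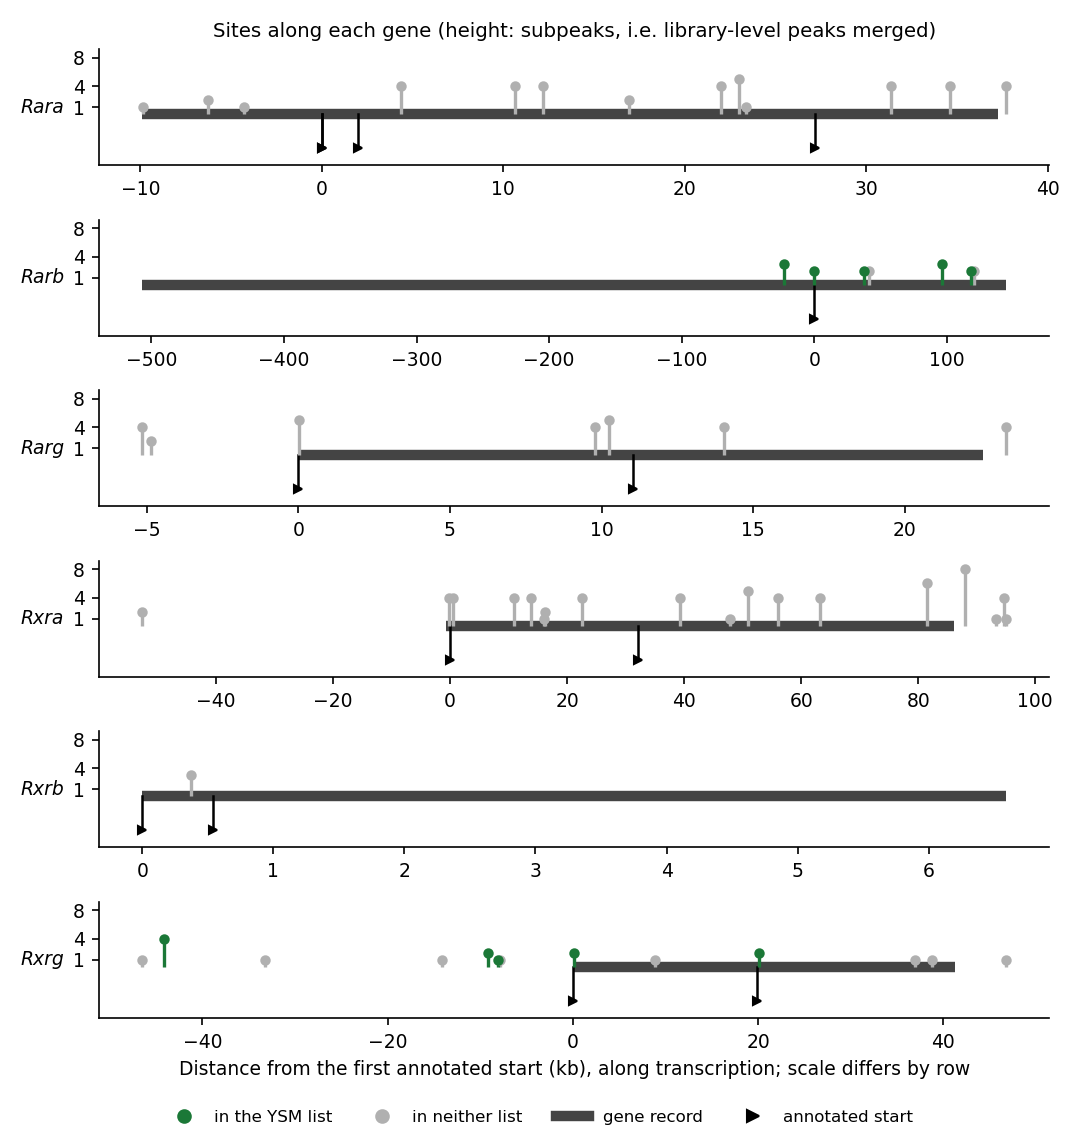
Sites along each receptor gene, by distance in kb from the first annotated start in the direction of transcription, with 1 row and 1 scale per gene. Each pin is a site, its height the number of subpeaks, its colour the list, and the dark bar the gene record with annotated starts as arrows. Green YSM-listed pins stand at the Rarb start and at both Rxrg starts, and the upstream 483940 bp of the Rarb record hold no pin.

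Rxra, the main RXR of myeloid cells, had the most sites, 18, and 0 were listed. It lies on chromosome 2 from 27676445 to 27763319 (NCBI gene 20181, plus strand). The site at its first start, chr2:27676878-27677185, covered 235 bases of the promoter window and combined 4 subpeaks. Another 12 were inside the gene, 4 were downstream and 1 lay 51857 bp upstream, the farthest of all 59 sites. The site with most subpeaks of any receptor, 8, lay 1822 bp downstream of Rxra (chr2:27764920-27765363). No merged peak had a receptor gene as its nearest gene beyond 100 kb.

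Rara, the RAR subtype expressed most widely, had 13 sites, of which 12 were inside the gene and 1 lay 474 bp downstream. It lies on chromosome 11 from 98927800 to 98974942 (NCBI gene 19401, plus strand). None (0) of its 13 sites overlapped any of its 4 promoter windows, whose nearest peak centres were 2356 to 4300 bp away. These windows do not cover the upstream end of the gene record, at 98927800. A site of 1 subpeak, chr11:98927728-98927928, lay at that end, 9868 bp before the nearest annotated start. The site chr11:98941945-98942190 also lay inside a second gene record, Gm46294.

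Rarg, the subtype best known from skin and cartilage, had 7 sites, 4 of them inside the gene. It lies on chromosome 15 from 102234938 to 102257522 (NCBI gene 19411, minus strand). The site at its first start, chr15:102257268-102257763, covered 291 bases of the promoter window and combined 5 subpeaks. Rxrb, an RXR found in most tissues, lies in the major histocompatibility complex on chromosome 17 from 34031812 to 34038403 (NCBI gene 20182, plus strand). It had 1 site, chr17:34032068-34032298, of 3 subpeaks and centred 167 bp before its second start. A peak of 4 subpeaks 138 bp before its first start, chr17:34031572-34031776, went to the neighbour Slc39a7, whose body holds that peak's centre. At Rxra, Rarg and Rxrb the promoter sites were thus unlisted, and at Rarb and Rxrg they were YSM-listed. Among all 10582 merged peaks over a promoter window, 0.0378% were MDM-listed and 0.841% YSM-listed.

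The receptors also differed in how many library-level peaks stood behind their sites. Sites of 3 or fewer subpeaks were 7 of 7 at Rarb, 12 of 13 at Rxrg and 1 of 1 at Rxrb, against 6 of 18 at Rxra, 5 of 13 at Rara and 1 of 7 at Rarg. Over all merged peaks the share was 42.3%, and of such peaks 0.0412% were MDM-listed and 2.5% YSM-listed. The median was 2 subpeaks at Rarb and 1 at Rxrg, and 4 at each of Rara, Rarg and Rxra. No site of Rarb can thus have been called in all 4 libraries, while most sites of Rara, Rarg and Rxra can. Which libraries gave the calls is not in the values used. The number of subpeaks and the place in a list rest on the same accessibility. Of all peaks with exactly 2 subpeaks, 0.069% were MDM-listed and 5.94% YSM-listed, and of those with 4 or more 0.22% and 0.726%. At Rarb and Rxrg, 6 of the 8 sites with exactly 2 subpeaks were YSM-listed. The other 4 receptors had 5 such sites, all unlisted, as were all 39 of their sites. The part of the subpeak number in the listing was not tested.

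**Figure D3:**
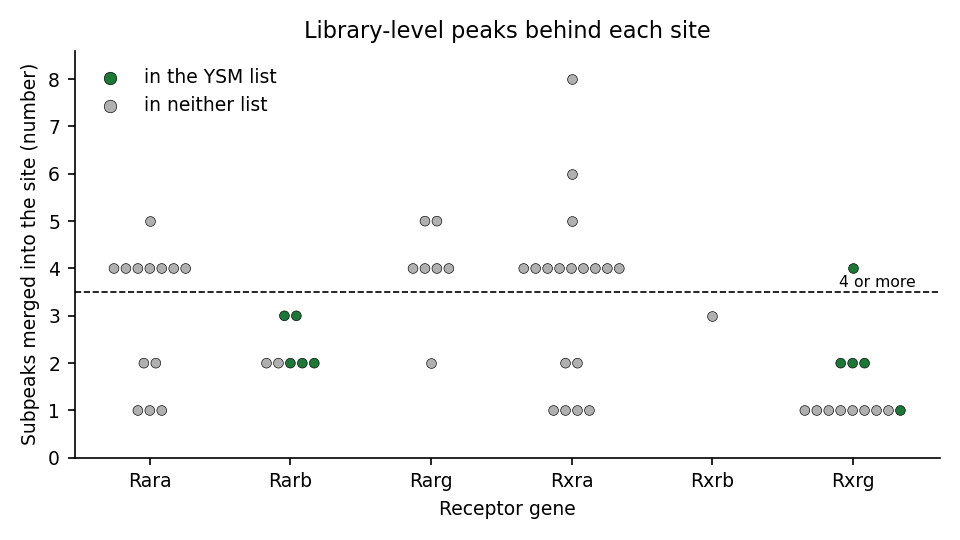
Number of subpeaks (vertical axis) of each site (points) of the 6 receptor genes, coloured by list. Sites above the dashed line, with 4 or more, can have had a call in every library, and the Rarb points all lie below it, as do 12 of the 13 Rxrg points.

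The receptor promoters differed in base composition. Over all 21238 windows the median was 56.3% G and C and an observed over expected CpG ratio of 0.567. The Rarb window had 57.7% and 0.696, and the first Rxrg window 53.7% and 0.602, both near these medians. The windows at the Rxra first start (83.0% and 1.08) and at the Rxrb starts (68.7% and 1.05, then 82.0% and 0.936) were CpG-rich, and the Rarg first window had 70.0% and 0.335. By the ratio, the windows under unlisted sites lay at percentiles 86.5 to 96.5 at Rxra and Rxrb and at percentile 34.9 at Rarg, on either side of Rarb (60.4) and the first Rxrg window (52.5). By the number of CpGs, Rarg with 12 was close to Rxrg with 13 and Rarb with 17.

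**Figure D4:**
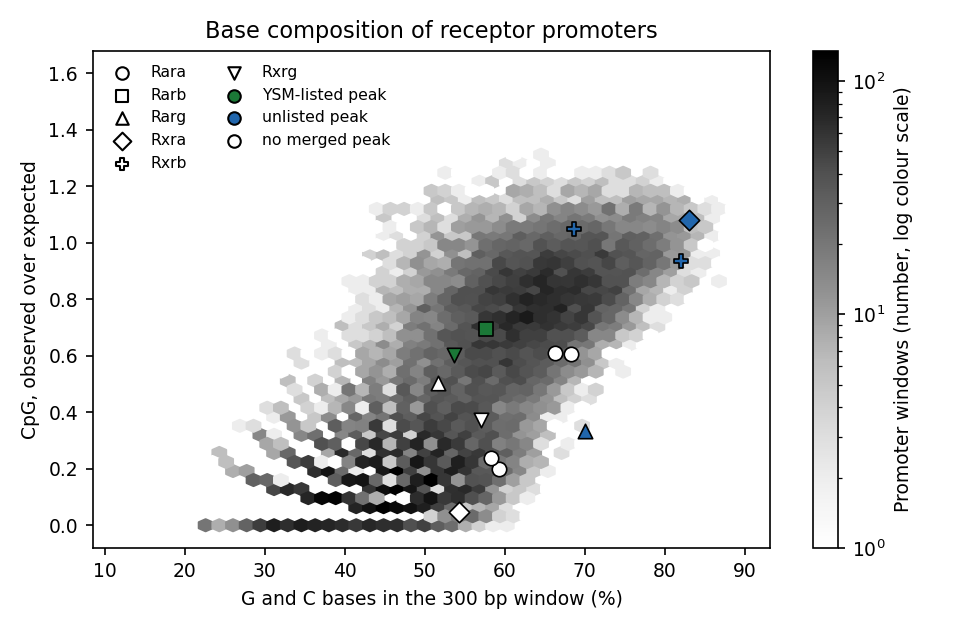
Share of G and C bases (horizontal, %) and CpG observed over expected (vertical) of the 300 bp promoter windows, with all 21238 windows in grey and the 13 receptor windows as symbols coloured by the merged peak over them. The green symbols, Rarb and the first Rxrg window, sit near the middle of all windows, at 0.696 and 0.602 on the vertical axis.

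The rest of the retinoid pathway was described by lists of genes. Genes that make retinoic acid had 14 sites at 5 of 8 genes, and 0 of these were listed. Aldh1a2, a retinaldehyde dehydrogenase gene, had the most, 4, while Aldh1a1, Adh1 and Dhrs9 had 0. Genes of retinoic acid breakdown and retinoid storage had 13 sites at 5 of 6 genes and 0 listed, with 4 at the retinaldehyde reductase gene Dhrs3. Genes of retinoid uptake and binding had 20 sites at 4 of 8 genes and 0 listed, with 7 at Fabp5, which carries fatty acids and retinoic acid. Stra6, the receptor for the retinol carrier, had 0 sites. With 0.145% MDM-listed and 1.48% YSM-listed over all peaks, 0 listed among so few sites is near the share over all peaks and is no result about these genes.

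The 13 partner receptors of RXR had 80 sites at 12 genes and 0 were listed. Pparg, the PPAR of fat cells and alveolar macrophages, had 17, and Nr1h3, the oxysterol receptor gene LXR alpha, had 4. The 12 coregulator genes had 164 sites, of which 0 were MDM-listed and 3 YSM-listed (1.83%). Over all merged peaks 0.145% were MDM-listed and 1.48% YSM-listed. The counts of the partner and coregulator genes are near that share and are no result about these genes. Tbl1xr1, of the corepressor complex, had the most sites, 31, and 0 listed. All 3 listed sites belonged to Nrip1, a corepressor gene that retinoic acid induces, and lay 33393 to 34534 bp outside it (chr16:76407093-76407347, chr16:76407426-76407626 and chr16:76408259-76408464). With sites within 1 kb merged they counted as 1, and with non-coding genes included they went to another gene record, leaving 0.

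The retinoic acid target list without Rarb held 43 sites at 9 genes, of which 0 were MDM-listed and 2 YSM-listed (4.65%). Over all merged peaks the shares were 0.145% and 1.48%. Both listed sites were inside Meis1, a homeobox gene of 11 sites, and chr11:19018732-19019226 overlapped its promoter window and combined 7 subpeaks. Tgm2, the transglutaminase gene, had the most sites, 13, and 0 listed. The 29 other nuclear receptor genes had 111 sites, 0 MDM-listed and 5 YSM-listed (4.5%). Of these, 3 lay 37885 to 38375 bp from Nr2f1, an orphan receptor gene, between chr13:78236658-78236858 and chr13:78237148-78237348, and were nearer to another gene record once non-coding genes were counted too. The other 2 were inside Nr3c2, the mineralocorticoid receptor gene, which had 3 sites in all. With sites within 1 kb merged, the 5 YSM-listed sites of this list counted as 3. With at least 2 subpeaks required, 3 remained. Nr3c1, the glucocorticoid receptor gene, had the most sites, 21, and 0 listed.

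The median number of sites per gene was 10 for the receptors and 3 for the 83 other genes of these lists, against 2 over all 21887 genes. The receptors were selected with their number of sites known, so their higher median is no result about them. In all, the lists without the receptors had 0 MDM-listed and 10 YSM-listed sites among 437 (2.29%). Over all merged peaks 0.145% were MDM-listed and 1.48% YSM-listed. The 6 receptors had 10 YSM-listed among 59, but they were selected with the lists known, so the 2 counts are not a fair comparison.

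**Figure D5:**
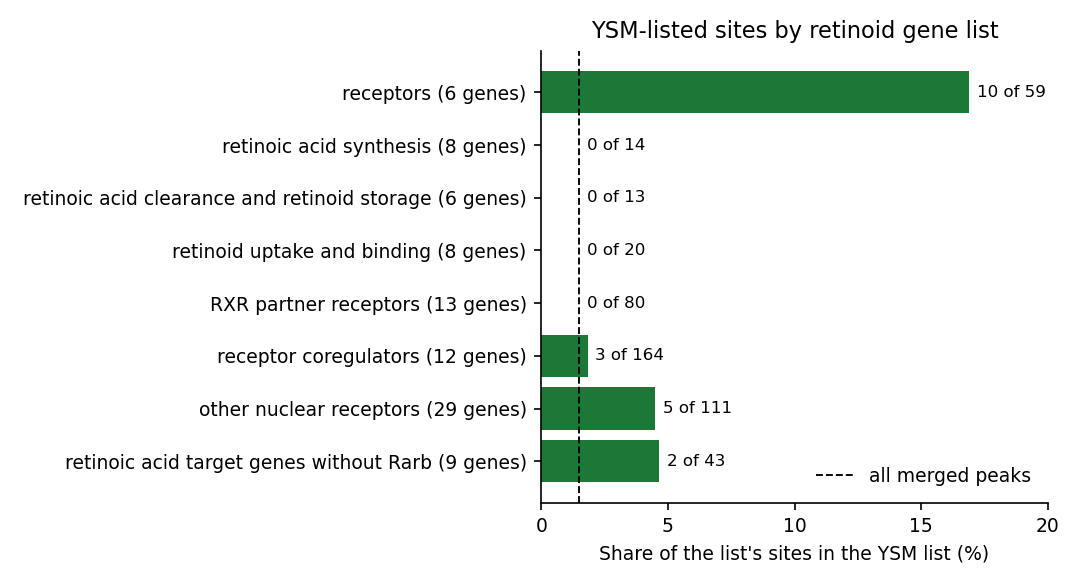
Share of each list's sites that were YSM-listed (bars, %), with the number of listed sites of all its sites beside each bar and the share over all merged peaks, 1.48%, as a dashed line. The receptor bar, 10 of 59, was chosen with this value known, and 4 lists had none.

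Across the genome, 16 of the 15385 protein-coding genes with a site had 5 or more YSM-listed sites, and Rarb and Rxrg were 2 of them. Both were selected with their places in the lists known, so this is a description and was not tested. Over all merged peaks 0.145% were MDM-listed and 1.48% YSM-listed. The genes most like Rxrg in its numbers of sites and of YSM-listed sites, 13 and 5, were Sall3 with 12 and 5, Ablim1 with 13 and 4 and Dlgap2 with 13 and 4. The measure was the sum of the differences in both numbers, which was 1 for each, and covers merged lists and not samples. Since these genes were picked by the same numbers, their YSM-listed counts are no result about them. Sall3 is a zinc-finger factor, Ablim1 an actin-binding protein and Dlgap2 a synaptic scaffold.

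As a check on the cell type, all 14 genes of the macrophage and microglia list and all 6 of the monocyte-derived macrophage list had merged peaks, a median of 5 and 8 each. Of their 102 and 57 sites, 0 were MDM-listed and 7 YSM-listed, all 7 at Sall1, a microglial transcription factor gene. Over all merged peaks 0.145% were MDM-listed and 1.48% YSM-listed, so 0 MDM-listed among so few sites is near that share. Markers of neurons, astrocytes, oligodendrocytes, endothelial cells, lymphocytes and neutrophils had merged peaks at 15 of 25 genes, with a median of 1. Over all protein-coding genes it was 15385 of 21887, with a median of 2, so 15 of 25 is near the share over all genes. The cell types differed, with a median of 5 for endothelial cells, as for the macrophage and microglia list, and 3.5 for astrocytes. The median was 2 for neurons and for oligodendrocytes, 0.5 for lymphocytes and 0 for neutrophils. The neutrophil genes had 0, and Mbp, with 20, and Flt1, with 17, had the most. Of the 85 sites at these 25 genes, 0 were MDM-listed and 2 YSM-listed, at Mog and Mbp. A peak does not show that a gene is transcribed, and the part of other cell types in the receptor sites was not tested.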

How the data were processed

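The deposited files were read as peak intervals. The submitters' processing notes name Bowtie2 2.2.5, Trimmomatic 0.39, HOMER and Picard, and build mm10. The authors merged the peaks of MDM1, MDM2, YSM1 and YSM2 with HOMER mergePeaks, per the file headers. No source used here gives the calling settings, a Tn5 shift or the thresholds behind the MDM and YSM lists, whose names point to a differential test. A further deposited column without stated meaning was not used. The subpeak number was read from each peak's name. Depth per library was not analysed here.

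Genes came from RefSeq GRCm38.p6 and coordinates are 1-based. A peak belonged to every protein-coding gene that held its centre, otherwise to the nearest one up to 100 kb. Gene ends were within 1 kb of either end. The table gave no exons, so exonic and intronic sites were not told apart, and protein sequences were not used here. Counting and motif search were tested on simulated data (Python 3.11.15, pandas 2.3.3).

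Members, lists and tests were chosen with earlier results of these data known. The named genes were the 6 receptors, list genes with a listed site or the most sites, and the 3 genes most like Rxrg; others were named after their values were seen. The hexamers other than AGGTCA and the single assignment of peaks inside 2 genes were added after seeing the data. No test was run, since the lists hold no values per library and list membership chose the members.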

Additional observations from a re-analysis of the deposited data

How the results depend on the processing

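The counts describe merged lists, so neither depth nor the spread between libraries could be weighed, and leaving out a library was not run because the lists hold no values per library. No paired analysis was possible because the results come from no test and the lists hold no values per library. Of 172 values under an alternative, over 27 results, 152 stayed within 1.5 times the first value and 20 moved further. Those 152 include many counts of 0 that stayed 0, which most alternatives could not have raised. Rarb had 5 YSM-listed sites under all 7 alternatives. Rxrg had 5 under 4 of them, 4 with neighbours within 1 kb merged or with at least 2 subpeaks, and 2 inside the gene only. Rara, Rarg, Rxra and Rxrb had 0 under all 7. Only counting any receptor gene within 50 kb could have raised these, since the other alternatives drop or merge sites. The 59 receptor sites became 96 with any receptor gene within 50 kb, nearest or not, with 17 in place of 1 at Rxrb, 20 in place of 7 at Rarg and 21 in place of 13 at Rara. With at least 2 subpeaks Rxrg had 4 sites in place of 13, all of them YSM-listed. Of all peaks with exactly 2 subpeaks 5.94% were YSM-listed, and of those with 4 or more 0.726%. Subpeak number and listing rest on the same accessibility, so this filter was no separate check on the listing. The 10 YSM-listed sites of the other lists became 4 inside genes only, 4 with genes of every annotated kind and 6 with neighbours merged, and their 0 MDM-listed sites became 1 with any list gene within 50 kb. Of 13 receptor windows, 4 held AGGTCA and 7 held any of the 4 hexamers.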

Other observations

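Listed peaks also lay in the surroundings of receptor genes without listed sites. Within 500 kb of Rara, 2 of 77 other merged peaks were MDM-listed and 0 YSM-listed. They lay inside Med24, a Mediator subunit gene, 218923 bp from Rara, and by the gasdermin gene Gsdma2, 267219 bp away. Within 500 kb of Rxra, 0 of 45 other peaks were MDM-listed and 1 was YSM-listed, inside the collagen gene Col5a1. Around Rarg and Rxrb, 0 of 84 and 0 of 126 other peaks were listed. Over all merged peaks 0.145% were MDM-listed and 1.48% YSM-listed, so the counts around Rxra, Rarg and Rxrb are near that share. The 2 of 77 around Rara are a larger share than 0.145%, and were not tested.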
